A study of Homo sapiens with 4 samples.

Results

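The outer 5 Mb of the short arm of chromosome 1 (1p) and of the long arms of chromosomes 10 and 12 (10q and 12q) are described here by how open their chromatin was in A375, a single established line of human melanoma cells. The assay was ATAC-seq, which uses the transposase Tn5 to cut and tag DNA that is not packed away. Cells were treated for 48 h with 1 mM octanoate (2 libraries) or with the vehicle isopropanol (2 libraries), and cells of both groups were grown in DMEM with fetal bovine serum. The labels do not say whether the libraries of a group came from separate cultures, so the p-values measure only the spread between these libraries, which may be technical. Members were the listed regions lying wholly within the first 5 Mb of chromosome 1 or starting within the last 5 Mb of chromosome 10 or 12. They numbered 984 of the 125986 regions in the authors' deposited table, with 390 on 1p, 283 on 10q and 311 on 12q, and the rest of the same chromosomes held 24644. The ends were picked for their fold changes between octanoate and vehicle, so these fold changes are described and not tested.

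Chromosome arms end in telomeres, and the stretch inside them is often rich in genes and in G and C, with long genes and gene-poor stretches set between dense runs of short genes. Open regions mark promoters, where transcription starts, and distal elements such as enhancers, which act on genes from a distance. Octanoate is a medium-chain fatty acid that cells can oxidise in mitochondria to acetyl-CoA, and the series title names the effect of such fatty acids on the epigenome as its question.

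The sequences shown are the 300 bases around the start of 6 protein-coding genes in these ends, from RefSeq on GRCh38.p14, because each start lies in an open region described further on. PEX10, PANK4, C1orf174 and ZNF140 lie in regions that passed the threshold, while EBF3, a neuronal transcription factor gene on 10q, and NADK, whose region had a log2 fold change close to 0, were chosen after their values were seen. Each runs 5′ to 3′ on the gene's strand from 250 bases before the start to 50 after it, and capitals mark GC boxes (GGGCGG on either strand), the site of Sp1-type factors. The windows are chr1:2412515-2412814 (PEX10, minus strand), chr1:2526547-2526846 (PANK4, minus), chr1:3900223-3900522 (C1orf174, minus), chr12:133080673-133080972 (ZNF140, plus), chr10:129964225-129964524 (EBF3, minus) and chr1:1778767-1779066 (NADK, minus).
PEX10: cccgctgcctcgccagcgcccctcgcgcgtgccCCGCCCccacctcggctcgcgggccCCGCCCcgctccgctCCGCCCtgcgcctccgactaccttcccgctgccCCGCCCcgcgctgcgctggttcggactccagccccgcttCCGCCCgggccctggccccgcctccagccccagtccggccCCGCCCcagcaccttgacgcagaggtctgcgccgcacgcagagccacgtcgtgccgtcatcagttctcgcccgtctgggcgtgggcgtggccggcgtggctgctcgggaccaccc
PANK4: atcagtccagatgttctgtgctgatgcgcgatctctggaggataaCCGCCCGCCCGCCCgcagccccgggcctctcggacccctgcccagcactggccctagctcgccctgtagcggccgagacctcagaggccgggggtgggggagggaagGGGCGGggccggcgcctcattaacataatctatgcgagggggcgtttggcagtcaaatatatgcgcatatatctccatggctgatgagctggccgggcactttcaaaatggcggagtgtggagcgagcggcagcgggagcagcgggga
C1orf174: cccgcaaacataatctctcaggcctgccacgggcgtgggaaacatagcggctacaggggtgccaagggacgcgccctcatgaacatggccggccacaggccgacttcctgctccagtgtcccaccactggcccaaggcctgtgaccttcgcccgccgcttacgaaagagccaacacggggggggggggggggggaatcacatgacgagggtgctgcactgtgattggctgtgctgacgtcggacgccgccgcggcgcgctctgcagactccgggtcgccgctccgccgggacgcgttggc
ZNF140: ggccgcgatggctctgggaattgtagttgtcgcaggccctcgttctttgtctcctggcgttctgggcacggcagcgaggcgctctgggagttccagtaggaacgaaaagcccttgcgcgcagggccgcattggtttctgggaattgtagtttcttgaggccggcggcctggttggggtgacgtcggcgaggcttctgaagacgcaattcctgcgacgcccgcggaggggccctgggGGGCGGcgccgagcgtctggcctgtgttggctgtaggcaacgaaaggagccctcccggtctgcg
EBF3: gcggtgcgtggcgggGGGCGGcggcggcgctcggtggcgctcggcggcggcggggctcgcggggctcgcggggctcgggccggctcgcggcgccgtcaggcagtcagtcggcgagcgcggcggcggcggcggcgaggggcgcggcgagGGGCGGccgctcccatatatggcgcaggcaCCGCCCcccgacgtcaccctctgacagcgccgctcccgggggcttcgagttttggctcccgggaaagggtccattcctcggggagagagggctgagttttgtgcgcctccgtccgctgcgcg
NADK: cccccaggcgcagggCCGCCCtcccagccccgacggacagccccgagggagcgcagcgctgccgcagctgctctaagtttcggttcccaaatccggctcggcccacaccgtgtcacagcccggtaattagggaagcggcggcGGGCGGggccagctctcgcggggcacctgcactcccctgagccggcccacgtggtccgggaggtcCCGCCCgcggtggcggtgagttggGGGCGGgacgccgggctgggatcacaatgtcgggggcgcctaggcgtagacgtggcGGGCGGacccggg

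GC boxes numbered 6 in the PEX10 window, 4 in PANK4, 5 in NADK, 3 in EBF3, 1 in ZNF140 and 0 in C1orf174. The G and C content was 79.0% for PEX10, 78.7% for EBF3, 74.7% for NADK, 68.0% for C1orf174, 65.0% for ZNF140 and 64.7% for PANK4. Across the ends, 87 regions held a protein-coding start with a RefSeq window, and the median G and C content of these windows was 74.3%, against 66.0% in 2140 such regions in the rest of the same chromosomes and 67.0% in all 10866. The median number of CG dinucleotides was 37 in the ends and 27 in the rest. On either strand, GC boxes were found in 80.5% of windows in the ends, 72.0% in the rest, 74.0% at all 10866 open starts and 56.3% of all 22198 windows of protein-coding starts, open or not. An AP-1 motif (TGANTCA) was found in 2 of the 87 windows (2.30%), against 5.84% in the rest, 5.14% at all open starts and 6.15% of all windows. The CCAAT box (CCAAT) was in 26.4% of windows in the ends and 36.7% in the rest, with 35.3% at all open starts and 34.7% of all windows, and the CRE motif (TGACGTCA) was in 5 windows (5.75%), against 2.48% in the rest, 3.20% at all open starts and 2.26% of all windows. An E-box (CANNTG) was in 54.0% of windows in the ends and 60.2% in the rest, with 58.3% at all open starts and 65.1% of all windows. The telomere repeat (TTAGGG), which builds chromosome tips, was in 5 windows (5.75%), against 8.64% in the rest, 7.79% at all open starts and 8.84% of all windows. None of these strings contains another, and a match says only that the letters stand in the window. Windows were matched for 129 of the 171 protein-coding genes of the ends (75.4%), which is under 80%, so a comparison of fold changes at equal G and C content would be void for these genes and was not made.

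Regions of the 3 ends had higher levels after octanoate than after vehicle in most cases. Per the authors' deposited table, the median log2 fold change of octanoate over vehicle was 0.49 over the 984 regions, with quartiles of 0.22 and 0.76, and 868 of them (88.2%) lay above 0. The rest of chromosomes 1, 10 and 12 had a median of 0.24 and 73.5% above 0 per the authors' deposited table, and all 125985 nuclear regions had 0.23 and 72.1%. The difference between ends and rest was 0.24 on the log2 scale. By end, the medians per the authors' deposited table were 0.48 on 1p against 0.25 in the rest of chromosome 1, 0.53 on 10q against 0.25 in the rest of chromosome 10, and 0.46 on 12q against 0.23 in the rest of chromosome 12. These values are the ones by which the ends were picked. The plot of the distributions shows the medians and the middle of each distribution higher in the ends, while the tails overlap those of the rest. The opposite ends of the same chromosomes, also 5 Mb each, had medians per the authors' deposited table of 0.37 (1q, 406 regions), 0.30 (10p, 176 regions) and 0.29 (12p, 241 regions).

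**Figure D1:**
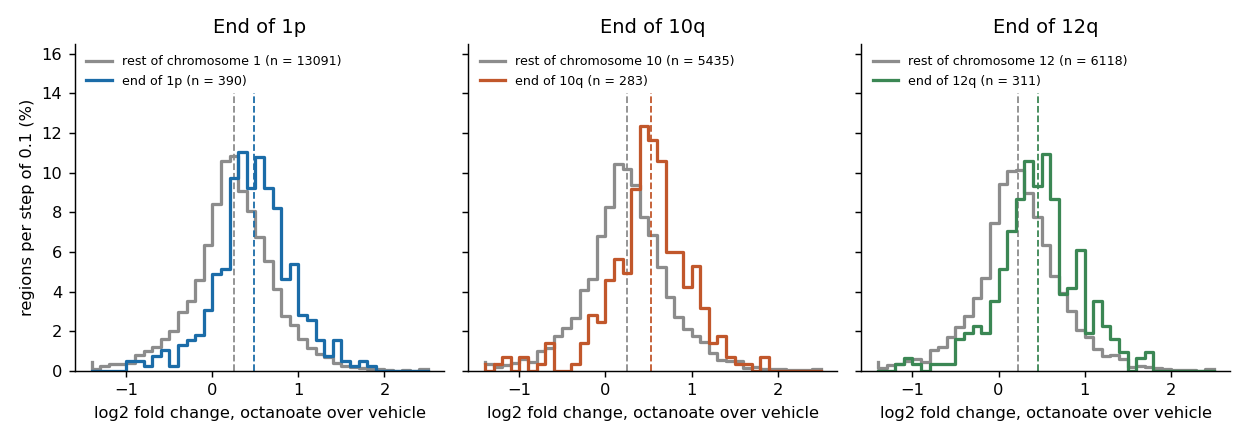
Share of regions (%) in steps of 0.1 of the log2 fold change of octanoate over vehicle, for each end (coloured) and the rest of its chromosome (grey), with values beyond the axis put in the outermost step; dashed lines are medians. The centres of the coloured curves lie to the right of the grey ones and the tails overlap, with medians of 0.48 against 0.25 (1p), 0.53 against 0.25 (10q) and 0.46 against 0.23 (12q).

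The authors' adjusted p-values cover only regions whose mean over the 4 libraries reached 63.8 normalized reads, called tested regions here. They were 110 of the 984 members, 50 on 1p, 29 on 10q and 31 on 12q, and the other 874 lay below this level. Per the authors' deposited table, 13 of the 110 passed an adjusted p of 0.05 (DESeq2, Benjamini-Hochberg), all of them higher after octanoate, against 1.02% of all 11185 tested regions. Of the 13, 8 lay on 1p, 3 on 10q and 2 on 12q. At an unadjusted p of 0.05, 61 tested members were higher and 0 lower per the authors' deposited table, where 14.8% of all tested regions were higher and 0.107% lower. The ends were picked from this same contrast, so nothing is read from these shares. Among tested members, 109 of 110 lay above 0 per the authors' deposited table, and the single exception was a region 231 kb from AJAP1 on 1p. All tested regions together had a median of 0.19. Relative to this median 0 of the 13 passed, with adjusted p-values of 0.278 or more (DESeq2 values centred, Benjamini-Hochberg), against 0.0536% of all tested regions. At an unadjusted p of 0.05 (DESeq2 values centred), 24 tested members were higher and 0 lower, with 3.16% of all tested regions higher. The share of all tested regions that were lower after centring is not given, so nothing is read from the 0.

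On 1p, 5 of the 8 regions that rose lay within 417 kb of each other. The smallest adjusted p of the ends was at PRKCZ, the gene of an atypical protein kinase C that acts in cell polarity. This region within the gene (chr1:2132108-2136116) had an implied level of 368 normalized reads with vehicle and 534 with octanoate, and a log2 fold change of 0.54 (SE 0.11, adjusted p 0.00108, DESeq2) per the authors' deposited table. Implied levels follow from the mean over all 4 libraries and the fold change in the authors' deposited table, which lists means over all libraries only. The next region lay at SKI, whose product represses SMAD transcription factors downstream of TGF-beta. It was a wide region (chr1:2227017-2232798) that covers one end of the gene's span, at position 2228319, and rose from an implied 268 to 394 normalized reads, a log2 fold change of 0.56 (SE 0.13, adjusted p 0.00561, DESeq2) per the authors' deposited table. A weaker SKI region (chr1:2289681-2291302) stood at an implied 78.8 and 125 normalized reads and did not pass per the authors' deposited table (log2 fold change 0.67, SE 0.21, adjusted p 0.0727, DESeq2).

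The start of PEX10, which encodes a ubiquitin ligase needed to import proteins into peroxisomes, lay in the third region (chr1:2411673-2414831). It rose from an implied 208 to 323 normalized reads, with a log2 fold change of 0.64 (SE 0.14, adjusted p 0.00265, DESeq2) per the authors' deposited table. The start of PANK4, a pantothenate kinase family member of the coenzyme A pathway, lay in the fourth (chr1:2525609-2527313). That region rose from an implied 136 to 207 normalized reads per the authors' deposited table (log2 fold change 0.61, SE 0.17, adjusted p 0.0305, DESeq2). Both windows are printed above, with 6 and 4 GC boxes. The fifth (chr1:2545714-2548952) lay between genes, 5.28 kb from TNFRSF14, the receptor of the cytokine LIGHT, and rose from an implied 126 to 199 normalized reads per the authors' deposited table (log2 fold change 0.66, SE 0.17, adjusted p 0.0182, DESeq2). Over the stretch from the first to the last of these 5, 49 regions were listed, whose log2 fold changes had a median of 0.56 per the authors' deposited table, and 41 of them lay above 0. All 11 tested regions in the stretch lay between 0.44 and 0.74 per the authors' deposited table. The 390 members of 1p had a median of 0.48, with 347 above 0, per the authors' deposited table. The stretch was drawn between regions that passed, so nothing is read from its values.

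The remaining 3 regions of 1p that rose lay farther in. A region over the shared start of C1orf174 and the long noncoding RNA LINC01134 (chr1:3899460-3901743) went from an implied 388 to 523 normalized reads per the authors' deposited table, a log2 fold change of 0.43 (SE 0.12, adjusted p 0.0305, DESeq2). This was the smallest fold change of the 13, at the highest mean, 455 normalized reads. AJAP1, which encodes a protein that binds adherens junctions, held a region (chr1:4666303-4667828) that went from an implied 46.9 to 91.1 normalized reads, and its log2 fold change of 0.96 (SE 0.26, adjusted p 0.0277, DESeq2) was the largest of the 13 per the authors' deposited table, next to 0.96 for a region near GALNT9 on 12q. The other region with AJAP1 as its nearest gene (chr1:4379808-4381342) lay 273 kb away in a gene-poor stretch, with implied levels of 84.9 and 144 normalized reads per the authors' deposited table (log2 fold change 0.76, SE 0.20, adjusted p 0.0277, DESeq2). The AJAP1 start itself lay in a stronger region with implied levels of 262 and 333 normalized reads per the authors' deposited table, and its log2 fold change of 0.35 (SE 0.13, adjusted p 0.144, DESeq2) did not pass.

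Other tested regions of 1p did not pass. The largest of these was within FAAP20, a subunit of the Fanconi anaemia DNA repair complex (chr1:2194518-2195728), with implied levels of 75 and 125 normalized reads and a log2 fold change of 0.74 (SE 0.22, adjusted p 0.0537, DESeq2) per the authors' deposited table. At the low side, the region 231 kb from AJAP1 (chr1:4421698-4423253) had implied levels of 84.8 and 69.9 normalized reads, a log2 fold change of -0.28 (SE 0.26) per the authors' deposited table. It lies between both of the regions near AJAP1 that rose. The region at the adjoining genes PUSL1 and ACAP3 (chr1:1307490-1309502) had implied levels of 100 and 102 normalized reads, a log2 fold change of 0.03 (SE 0.21) per the authors' deposited table. The NADK start, of the kinase that makes NADP from NAD (chr1:1777813-1779274), had implied levels of 70.7 and 72.5 normalized reads, a log2 fold change of 0.04 (SE 0.25) per the authors' deposited table. At both of these starts the log2 fold change was smaller than its standard error.

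The highest mean of all members belonged to a region near the tip of 1p (chr1:628986-635021) that overlaps 7 pseudogenes copied from mitochondrial DNA. Its mean of 5314 normalized reads was 16.4% of the summed means of the 984 members, and its log2 fold change was 0.21 (SE 0.07, adjusted p 0.108, DESeq2) per the authors' deposited table. The mitochondrial genome itself had a log2 fold change of 0.10 (SE 0.08) per the authors' deposited table. Reads from near-identical copies could not be told apart here, so this value is uncertain.

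On 10q, the 3 regions that rose lay within 274 kb, on the side of EBF3 that faces the chromosome tip. EBF3 is a transcription factor of neuronal development. A region 6.17 kb from C10orf143 (chr10:130027907-130028951), rose from an implied 72.8 to 126 normalized reads, a log2 fold change of 0.79 (SE 0.21, adjusted p 0.0288, DESeq2) per the authors' deposited table. A region within C10orf143 (chr10:130064814-130066858) rose from an implied 93.8 to 167 normalized reads, with a log2 fold change of 0.84 (SE 0.19, adjusted p 0.00561, DESeq2) per the authors' deposited table. The third (chr10:130300323-130302091) held the start of the long noncoding RNA LOC124900609 and went from an implied 269 to 382 normalized reads per the authors' deposited table (log2 fold change 0.51, SE 0.13, adjusted p 0.0190, DESeq2). The 22 regions of this stretch had a median log2 fold change of 0.47 per the authors' deposited table, with 19 above 0. Its 5 tested regions ranged from 0.21 to 0.84. The 283 members of 10q had a median of 0.53, with 252 above 0, per the authors' deposited table. This stretch too was drawn between regions that passed, so nothing is read from its values.

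EBF3 itself held 10 regions, all above 0 per the authors' deposited table, and 5 were tested, but 0 passed. Its start region (chr10:129960209-129965376), whose promoter window is printed above, had implied levels of 255 and 336 normalized reads, a log2 fold change of 0.40 (SE 0.13, adjusted p 0.0942, DESeq2) per the authors' deposited table. A region inside the gene (chr10:129887615-129889721) had 108 and 168 normalized reads, a log2 fold change of 0.64 (SE 0.19, adjusted p 0.0508, DESeq2), just outside the threshold per the authors' deposited table. A neighbour in the same gene (chr10:129945234-129947225) had 86.3 and 96.3 normalized reads and a log2 fold change of 0.16 (SE 0.22) per the authors' deposited table; the difference between these regions was not tested. Farther out, a region within TUBGCP2, a subunit of the gamma-tubulin complex that seeds microtubules (chr10:133278447-133279446), had 49.2 and 85.7 normalized reads per the authors' deposited table, a log2 fold change of 0.80 (SE 0.25, adjusted p 0.0786, DESeq2). INPP5A, an inositol phosphatase that ends calcium signals, had 9 regions, all above 0 per the authors' deposited table, and its 3 tested regions had log2 fold changes of 0.45, 0.55 and 0.56. MGMT, which removes alkyl groups from guanine in DNA, also had 9 of 9 regions above 0, and its 3 tested regions had 0.26, 0.34 and 0.51 per the authors' deposited table, with 0 past the threshold for either gene. The smallest tested values of 10q were 0.10 (SE 0.23) at the start shared by LRRC27 and STK32C, 0.16 in the EBF3 region just given and 0.21 (SE 0.17) at GLRX3, a glutaredoxin of iron-sulfur cluster assembly, per the authors' deposited table. The highest mean of 10q, 429 normalized reads, was at the C10orf143 start, with a log2 fold change of 0.34 (SE 0.12, adjusted p 0.109, DESeq2) per the authors' deposited table.

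On 12q, 2 regions passed the threshold. A region 5.99 kb from GALNT9, a brain enzyme that starts O-linked sugar chains, held the start of the long noncoding RNA LINC02361 (chr12:132189192-132190378) and went from an implied 52.7 to 102 normalized reads, with a log2 fold change of 0.96 (SE 0.24, adjusted p 0.0165, DESeq2) per the authors' deposited table. The start of ZNF140, a KRAB zinc finger gene whose family represses transcription, lay in the other (chr12:133079838-133081331), which rose from an implied 151 to 233 normalized reads, a log2 fold change of 0.63 (SE 0.15, adjusted p 0.0139, DESeq2) per the authors' deposited table. A narrow region 8.61 kb from FBRSL1 (chr12:132593795-132594429) had 49.2 and 90.2 normalized reads per the authors' deposited table, a log2 fold change of 0.88 (SE 0.28, adjusted p 0.0772, DESeq2). Regions within ADGRD1, an adhesion receptor coupled to G proteins, and 12.5 kb from STX2, a membrane fusion protein, had log2 fold changes of 0.61 (SE 0.21) and 0.55 (SE 0.18) per the authors' deposited table and did not pass. The smallest tested values per the authors' deposited table were 0.10 (SE 0.17) within SFSWAP, a splicing regulator, 0.15 (SE 0.24) at the start of DDX51, an RNA helicase, and 0.19 (SE 0.26) at the start of ZNF605. The highest mean of 12q, 224 normalized reads, was over one end of MMP17, a membrane metalloprotease gene, with implied levels of 199 and 249 normalized reads per the authors' deposited table and a log2 fold change of 0.33 (SE 0.14, adjusted p 0.242, DESeq2).

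**Figure D2:**
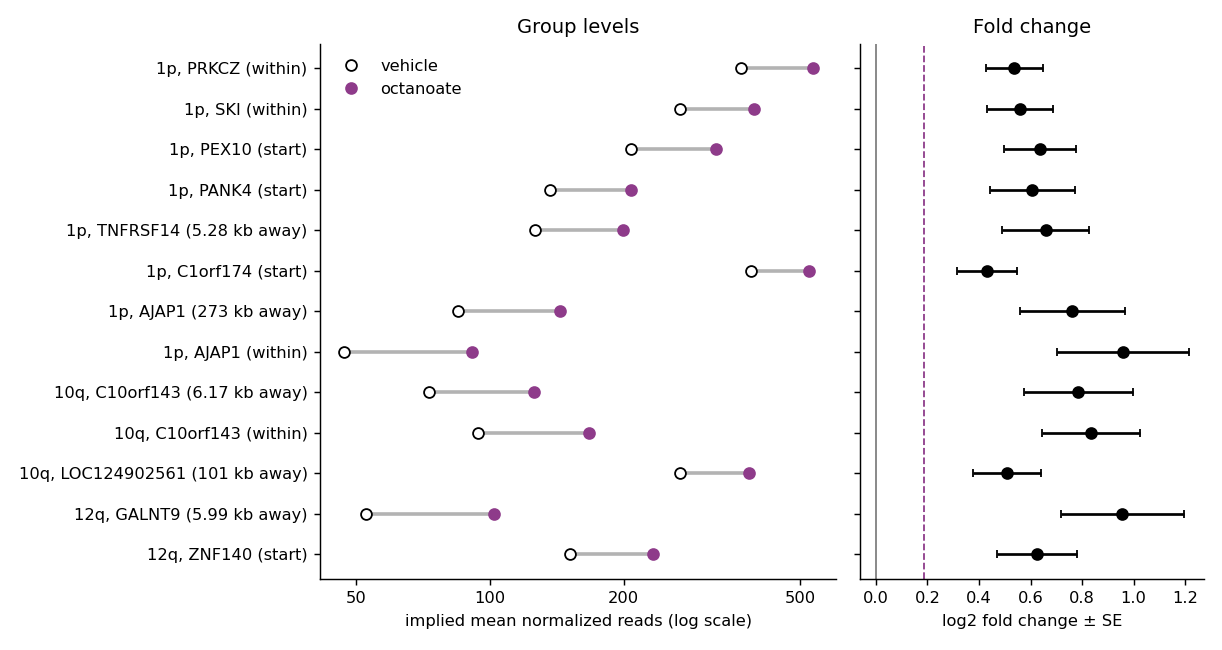
The 13 regions past an adjusted p of 0.05, named by gene, with implied mean normalized reads on a log axis (left; open circles vehicle, filled circles octanoate) and the log2 fold change with its standard error (right; grey line 0, dashed line the median of all tested regions, 0.19). All 13 lie to the right of the dashed line, from 0.43 at C1orf174 to 0.96 within AJAP1, and each with its standard error stays clear of it.

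Position relative to genes was not used in picking the ends. Starts were known only for genes with a RefSeq window, 129 of 171 in the ends (75.4%) and 83.1% of genes in the rest, and by end 69.8% on 1p, 80.6% on 10q and 84.6% on 12q. Of the 984 regions, 94 (9.55%) lay within 1 kb of such a matched start, against 9.67% in the rest of the same chromosomes, shares that rest on unequal matching. Another 24 of 984, against 444 of 24644 in the rest, lay within 1 kb of an end of a gene with no matched start, so that some of them may cover a start. With these set aside, 403 (41.0%) lay within a gene and 463 (47.1%) between genes, against 41.7% and 46.9% in the rest. Matched starts took 12.6% of regions on 1p, 7.07% on 10q and 8.04% on 12q, and 61.1% were between genes on 10q against 40.3% on 1p. Protein-coding genes numbered 96 on 1p, 36 on 10q and 39 on 12q, or 19.2, 7.2 and 7.8 per Mb, against 8.05, 5.42 and 7.68 per Mb in the rest of their chromosomes. A region within 1 kb of the gene was listed for 131 of these 171 genes. Regions were denser than usual for the chromosome: the ends held 78.0 (1p), 56.6 (10q) and 62.2 (12q) regions per Mb, and other windows of 5 Mb with at least 50 regions had medians of 60.8, 40.5 and 45.3. Single windows elsewhere reached higher numbers, with up to 430 regions on chromosome 1, 317 on chromosome 10 and 338 on chromosome 12, against 390, 283 and 311 in the ends.

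The median width was 444 bp in the ends and 444 bp in the rest. At least 2 kb wide were 39 members (3.96%), against 2.54% in the rest. By end this share was 4.36% on 1p, 4.59% on 10q and 2.89% on 12q. At the opposite ends it was 4.93% on 1q, 2.27% on 10p and 1.66% on 12p. The median signal of a region, its mean number of normalized reads, was 11.3 in the ends and 13.3 in the rest per the authors' deposited table, with 14.6 on 1p against 14.4 in the rest of chromosome 1, 9.62 on 10q against 11.9 in the rest of chromosome 10 and 10.1 on 12q against 12.7 in the rest of chromosome 12. In each of 10 classes of equal size by mean signal over all regions, the median log2 fold change of members per the authors' deposited table was above that of the rest, by 0.15 to 0.45. The largest gap was in the weakest class, 0.80 over 113 members against 0.35. The standard error of a single fold change was large for weak regions, with a median of 0.64 over all members and 0.21 over tested ones per the authors' deposited table.

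Over all regions, tested or not, the median fold change differed between classes of position, in the ends and elsewhere. Per the authors' deposited table, members at matched starts had a median log2 fold change of 0.37, those near genes with no matched start 0.32, the others within genes 0.50 and those between genes 0.54. The same classes in the rest of the chromosomes had 0.15, 0.17, 0.26 and 0.27 per the authors' deposited table. Regions at matched starts were the strongest, with a median of 72.4 normalized reads per the authors' deposited table, so position and signal cannot be told apart here. Among tested members the medians were 0.40 at matched starts, 0.52 within genes and 0.49 between genes per the authors' deposited table, and the order differed by end, with 0.43, 0.57 and 0.43 on 1p, 0.41, 0.53 and 0.53 on 10q and 0.38, 0.35 and 0.55 on 12q. The 7 tested members near genes with no matched start, at SKI, INPP5A, DFFB, MMP17, PUS1, PWWP2B and GLRX3, are left out of these medians. Of the 13 regions past the threshold, 4 were at matched starts and 1 was the SKI region over an end of that gene. Another 3 were within genes and 5 between genes. The tested members of these classes, in the same order, numbered 56, 7, 26 and 21. Over all nuclear regions, 17 of 5697 tested regions at matched starts passed, 4 of 929 near genes with no matched start, 35 of 2002 within genes and 58 of 2556 between genes per the authors' deposited table, so the classes differed in this share across the genome.

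**Figure D3:**
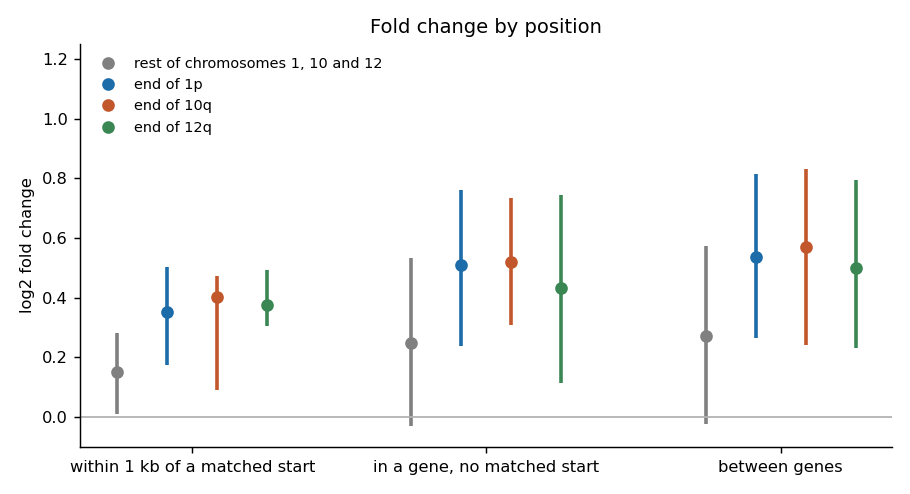
Median (points) and quartiles (bars) of the log2 fold change of octanoate over vehicle by position, for the 3 ends and for the rest of chromosomes 1, 10 and 12 together; regions near genes with no matched start are plotted in the class of the gene or gap they lie in. In each class the points of the 3 ends lie above the grey point, with 0.35 to 0.40 against 0.15 at matched starts and 0.50 to 0.57 against 0.27 between genes.

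Along the ends the fold changes were not even. On 1p, the outermost Mb held 25 regions and the next 64, with medians of 0.31 and 0.32 per the authors' deposited table, and 37.5% of the 64 were at starts. The third Mb, with the PRKCZ to TNFRSF14 stretch, had a median of 0.57 over 92 regions, the fourth 0.50 and the fifth 0.57 per the authors' deposited table. On 10q the 5 steps from the tip inward had medians of 0.58, 0.54, 0.57, 0.45 and 0.66 per the authors' deposited table, and on 12q they had 0.47, 0.43, 0.43, 0.49 and 0.49. The values did not break off at the 5 Mb limit: the next Mb inward had medians of 0.51 on 1p, 0.46 on 10q and 0.50 on 12q per the authors' deposited table. On chromosome 12 a step from 14 to 15 Mb reached 0.55 per the authors' deposited table, above every step of its end. Among windows of 5 Mb with at least 50 regions, the end had the highest median of 47 on chromosome 1 and of 27 on chromosome 10. On chromosome 12 it had the second highest of 27, where a window of 68 regions had 0.50 per the authors' deposited table. The ends were picked for these same fold changes, so nothing is read from these ranks. Just inside the limit, the 5 members of each end farthest from the tip had median log2 fold changes of 1.01 (1p), 0.75 (10q) and 0.31 (12q) per the authors' deposited table, and the 5 regions just outside had 0.96, 0.10 and -0.06. All 30 were below the level needed for the test, so single values carry standard errors of 0.29 to 1.97.

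**Figure D4:**
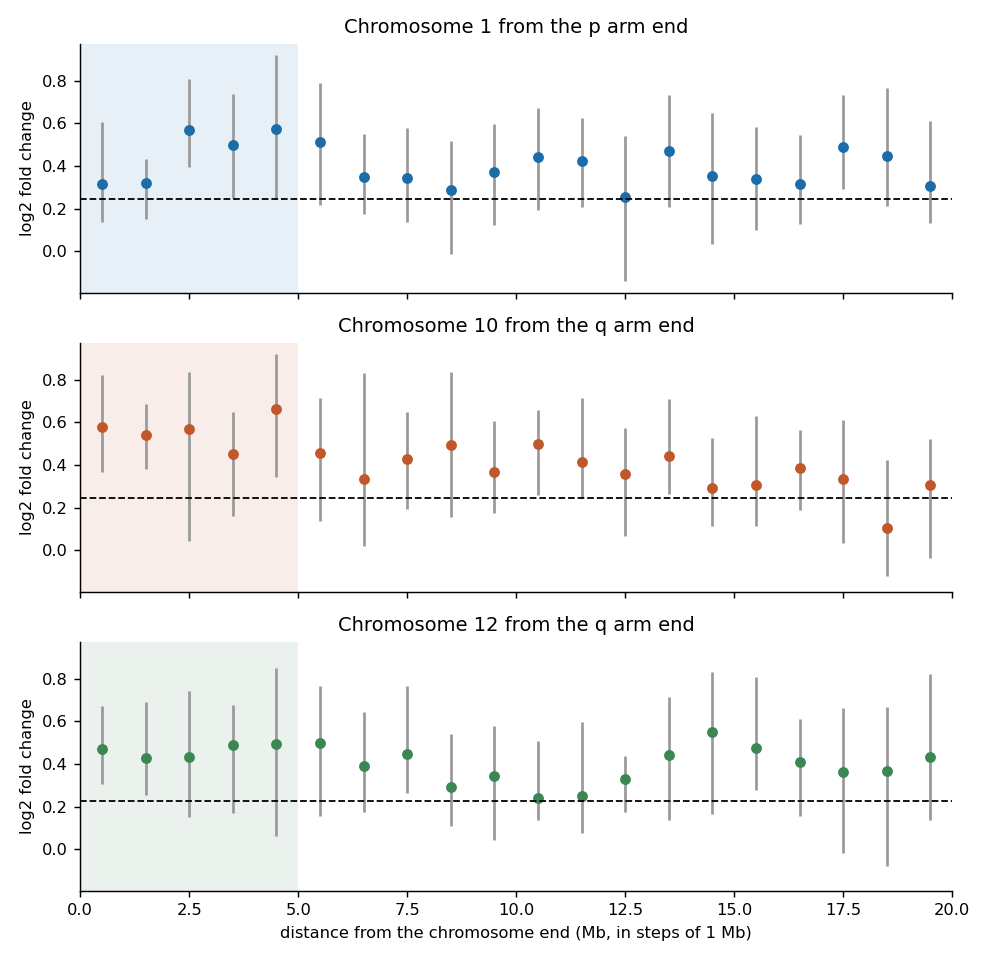
Median (points) and quartiles (bars) of the log2 fold change of octanoate over vehicle in steps of 1 Mb from the chromosome end, with the 5 Mb ends shaded; dashed lines are medians of the rest of each chromosome. Every point out to 20 Mb lies above its dashed line except that at 18 to 19 Mb on 10q (0.10), and the shaded points reach 0.57 on 1p, 0.66 on 10q and 0.49 on 12q.

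Long genes held many of the members. TMEM132D, a membrane protein gene active in the nervous system, held 41 regions, whose log2 fold changes had a median of 0.50 and 36 above 0 per the authors' deposited table. PRDM16, a transcription factor of brown fat and blood stem cells, held 37, each region being counted for the shortest gene it overlaps, with a median of 0.58 and 31 above 0 per the authors' deposited table. MEGF6 held 26 with a median of 0.52, RIMBP2, a protein of the presynaptic release site, 26 with 0.30, and ADGRD1 24 with 0.61, per the authors' deposited table. The widest contrast among genes with at least 9 regions was between MMEL1, a membrane metalloprotease with 9 of 9 regions above 0 and a median of 0.94, and GLT1D1, a glycosyltransferase-like gene with 8 of 15 above 0 and a median of 0.11, per the authors' deposited table. These regions are weak, with medians of 7.70 and 7.86 normalized reads, and 0 were tested in either gene.

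Genes of the ends were also grouped by function into 7 lists, which were drawn up with earlier results of these data known. Here a region counts for every listed gene that it overlaps or lies within 1 kb of, so the numbers per gene can exceed those above. The medians of all nuclear regions, 0.23, and of tested regions, 0.19, are the values to set beside them, and 1.02% of all tested regions passed. Developmental transcription factors had 74 regions for 6 of 9 genes, 62 of them above 0 and a median log2 fold change of 0.42 per the authors' deposited table, and 1 of 10 tested regions passed, the SKI region. NKX6-2, UTF1 and VENTX had no listed region within 1 kb. TP73 and HES4, a p53 relative and a Notch target, had tested start regions at 0.35 (SE 0.23) and 0.35 (SE 0.23) per the authors' deposited table, and HES5, another Notch target, had 2 weak regions of opposite sign, at -0.73 and 0.80. Signalling receptors and their partners had 44 regions for 9 of 12 genes with a median of 0.52 per the authors' deposited table, and 1 of 5 tested regions passed, at PRKCZ. GNB1, a G protein beta subunit, had 0.31 (SE 0.22) and the TNFRSF14 start 0.44 (SE 0.26) per the authors' deposited table, while TNFRSF4, TNFRSF18 and P2RX2 had no listed region within 1 kb.

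Genes of metabolism, mitochondria and peroxisomes had regions for 16 of 17 genes, 31 of 32 above 0, with a median of 0.46 per the authors' deposited table. Of their 15 tested regions 2 passed, those of PEX10 and PANK4. ECHS1, the mitochondrial hydratase of short-chain fatty acid oxidation, had a start region with implied levels of 66.1 and 92.2 normalized reads, a log2 fold change of 0.48 (SE 0.25, adjusted p 0.338, DESeq2) per the authors' deposited table. BNIP3, a receptor for the removal of mitochondria, had 0.42 (SE 0.18), MTG1, a mitochondrial ribosome assembly factor, 0.46 (SE 0.23), and ATAD3A, a mitochondrial membrane ATPase, 0.11 (SE 0.23) per the authors' deposited table. CYP2E1 had no listed region within 1 kb. The 13 nervous system genes all had regions, 154 in number with a median of 0.49 per the authors' deposited table, and 1 of 7 tested regions passed, within AJAP1. The starts of RIMBP2 and TCERG1L had weak values of -0.03 (SE 0.29) and -0.10 (SE 0.34) per the authors' deposited table, below the medians of all regions within 1 kb of their genes, 0.33 over 28 regions and 0.70 over 10.

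Genes of DNA repair, replication and chromatin had regions for 9 of 9 genes, 24 of 25 above 0, with a median of 0.34 per the authors' deposited table. All 11 tested regions lay between 0.26 and 0.58 per the authors' deposited table and 0 passed, with 5 higher at an unadjusted p of 0.05 (DESeq2), which 14.8% of all tested regions reached. The 11 included the start of RAN, the GTPase of nuclear transport, at 0.44 (SE 0.16), which was among these 5. The start of CHFR, a mitotic checkpoint ligase, at 0.46 (SE 0.23), was also among the 5. EP400, a chromatin remodeller, had 0.31 (SE 0.19) at its start and was not among the 5, per the authors' deposited table. POLE, the catalytic subunit of DNA polymerase epsilon, shares its start region with the peroxisomal membrane gene PXMP2, and that region had 0.30 (SE 0.20) per the authors' deposited table. Extracellular matrix genes and proteases had 37 regions for 6 of 7 genes with a median of 0.40 per the authors' deposited table, and 0 of 2 tested regions passed, with 2 higher at an unadjusted p of 0.05 (DESeq2), which 14.8% of all tested regions reached. The VWA1 start had a weak value of -0.55 (SE 0.75) per the authors' deposited table. The zinc finger cluster at the tip of 12q had 1 region per gene, 6 regions for 7 genes since ZNF10 and ZNF891 share theirs, all above 0 with a median of 0.33 per the authors' deposited table. Of these, 5 were tested and that of ZNF140 passed. At an unadjusted p of 0.05 (DESeq2), the other lists had 6 of 10 tested regions higher (transcription factors), 2 of 5 (receptors), 8 of 15 (metabolism), 5 of 7 (nervous system) and 2 of 5 (zinc fingers) per the authors' deposited table. Neighbouring starts ranged per the authors' deposited table from 0.05 (SE 0.41) at ZNF268 through 0.28 (SE 0.22) at ZNF84 and 0.38 (SE 0.26) at ZNF26 to 0.49 (SE 0.19) at ZNF10 and ZNF891; differences between these genes were not tested.

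**Figure D5:**
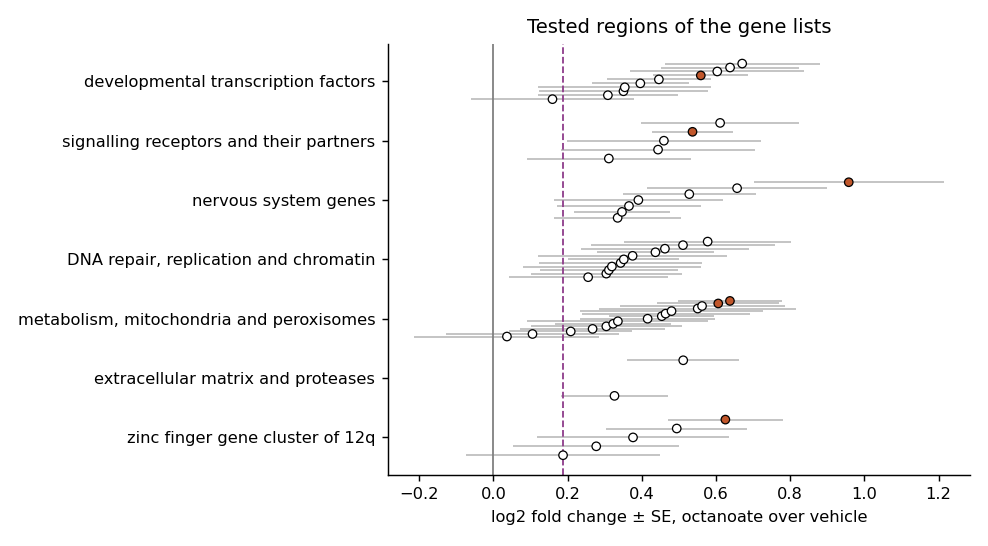
Log2 fold change with its standard error for the tested regions of the 7 gene lists, filled where the adjusted p was under 0.05; the grey line is 0 and the dashed line the median of all tested regions, 0.19. All points lie above 0, and 6 are filled, with the highest, 0.96, within AJAP1.

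Some facts of the series bear on these values. The labelled cell type was checked at starts with a RefSeq entry: MITF, DCT, AXL, EGFR and JUN had a listed region within 1 kb of a start, MLANA and TYR had none, and PTPRC, CD79A and ALB, genes of blood and liver cells, had none. SOX10, PMEL, NGFR, CD3E, EPCAM and PECAM1 were not matched. The labels state an average of 40000000 to 50000000 paired-end reads per sample, and the depth of each library is not known here, so no counting intervals are given. A shift shared by all regions and a change of single regions cannot be told apart on the authors' scale, on which 85.7% of all tested regions lay above 0.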

How the data were processed

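Open chromatin was profiled by ATAC-seq in 4 libraries of A375 cells, 2 with octanoate and 2 with vehicle, grouped by sample title. The submitters' processing notes name Trim Galore, cutadapt, FastQC, Bowtie2, Picard, MACS2, featureCounts, DESeq2, bedtools 2.29.1 and hg38, without roles. The handling of the Tn5 cut offset, the merging of regions and the scaling are not given in the sources used here, and each could change levels and fold changes. The authors deposited 1 table of DESeq2 results. Per the file headers, its signal is a normalized read count, averaged over all 4 libraries, and its log2 fold change (octanoate over vehicle) comes with a standard error. The Wald statistic was deposited as a score and equalled the fold change divided by its standard error. The deposited p-value was adjusted over 11185 regions (means from 63.8 upward) and listed as 1 in the other 114801; recomputed Benjamini-Hochberg values were equal to within 1.69e-14.

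From these values, regions were placed by coordinates (counted from 1), and levels per group were implied as those whose average is the mean and whose ratio is the fold change. This is approximate, since fitted fold changes need not equal ratios of means. Genes came from RefSeq (GRCh38.p14, 20052 protein-coding genes), with starts and strands from its promoter windows; other genes have no known start here. Overlapping windows of opposite strands agreed in letters in 646 of 646 pairs. A region was assigned to the shortest gene it overlaps, or else the nearest; for the gene lists it counted for each listed gene within 1 kb. Exons and introns were not used here. Named regions were, per end, all past the threshold, the 5 largest and 3 smallest among tested regions (1 per gene), the highest mean and those at the 5 Mb limit. Members and lists were chosen with earlier results of these data known. No test was made of the groups, as no library has its own values. Alternatives changed the threshold, adjustment, centring, end width and region sets. Scripts used Python 3.11.15, numpy 2.4.6, pandas 2.3.3 and scipy 1.17.1 and were tested on simulated data.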

Additional observations from a re-analysis of the deposited data

How the results depend on the processing

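The count of 13 regions past the threshold, all higher, became 4 at an adjusted p of 0.01, 26 at 0.1, 2 with Benjamini-Hochberg over all listed regions (PRKCZ and PEX10), 7 with ends of 3 Mb and 5 without the end of 1p. Without 10q and without 12q it was 10 and 11, and ends of 10 Mb gave 13. It was 0 when fold changes were centred on the median of the tested regions or on that of all regions, with 24 and 19 higher and 0 lower at an unadjusted p of 0.05 (DESeq2 values), and 0 when a doubling was also required. Of all 11185 tested regions, 1.02% passed at the main threshold. Once centred on their own median, 0.0536% passed and 3.16% were higher at an unadjusted p of 0.05 (DESeq2 values centred). No such share is given for the other thresholds, the wider adjustment or the second centring. The sizes of the counts 4, 26, 2 and 19 therefore cannot be judged against all tested regions, and nothing is read from them. A stricter threshold, a wider adjustment, shorter ends or fewer ends lower the count by construction. Centring on a median above 0 also lowers every fold change by construction, and any other cause of the loss on centring was not tested. The difference of 0.24 between the medians of ends and rest became 0.20 with ends of 10 Mb. It stayed between 0.21 and 0.26 with ends of 3 Mb, tested or stronger regions, equal mean signal, or regions at or away from matched starts. The same range held with 1 value per gene, each end left out, or, added after the data were seen, each end against its own chromosome. Every setting reuses the fold changes by which the ends were picked, so this difference is only a description. The share at matched starts, 9.55%, rests on 75.4% of genes in the ends and 83.1% in the rest, and was 13.1% within 3 kb (13.0% in the rest), 50.9% among tested regions (49.3%) and, added later, 12.9% within 1 kb of either gene end (11.6%) and 12.0% with regions near either end of genes without a matched start (11.5%). No paired analysis was possible because single libraries have no values of their own, so leaving out a replicate was not run either. Adjusted p-values cover 110 of 984 members, and the depth of each library is not known here.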
